A study of Rattus norvegicus with 24 samples.

Results

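Prkcd, Ramp3, Synpo2, Ntng1 and Ptpn3 are 5 genes enriched in the thalamus, or seen in earlier looks at these arrays to vary with such genes, that were followed here in blocks of rat hypothalamus. They were taken by symbol from the array's probe table, which pairs them with 9 of the 31099 probe sets in the file (1 for Prkcd, 1 for Ramp3, 4 for Synpo2, 1 for Ntng1 and 2 for Ptpn3), and they are 5 of the 14217 genes tested. They were picked with the linalool comparison and their variation between arrays already known, so their differences in that comparison and their likeness to each other are descriptions without a test.

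The tissue came from 18 male Wistar rats, labelled 7 weeks old, in groups of 6 with 1 array per rat. Linalool rats were held in steel-mesh restraint for 2 h in a 40 L box into which 20 µL of (R,S)-linalool, a lavender-scented monoterpene alcohol, had been evaporated. Stress rats had the same 2 h of restraint without the odour, and control rats are labelled with neither, so no group had the odour alone. A box is noted for linalool rats only, and whether the other rats were kept in one is not known here. The values are log2 signals as the authors deposited them. Stress and control arrays had been normalised together (the first set), and linalool and stress arrays together (the second set). Each stress array therefore has a value in both sets, both comparisons share the 6 stress rats, and linalool and control rats are not set against each other.

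The thalamus lies directly above the hypothalamus and relays sensory and motor signals to the cortex, mostly through glutamatergic neurons that express the transcription factor Tcf7l2. Both structures border the third ventricle, and the upper face of each block was cut over that ventricle. Prkcd encodes protein kinase C delta, a kinase switched on by diacylglycerol. Ramp3 encodes a membrane protein that pairs with the calcitonin receptor or its relative to form adrenomedullin and amylin receptors. Ntng1 encodes netrin-G1, a GPI-anchored adhesion protein of axons that binds Lrrc4c on the partner cell. Ptpn3 is a tyrosine phosphatase with a FERM and a PDZ domain, and Synpo2 encodes an actin-binding relative of synaptopodin.

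The start-site windows of the member with a motif match and of the pair with the largest linalool difference are shown. The 5 genes moved together from rat to rat, which by itself does not show a shared regulator. Windows of 300 bases from RefSeq's assembly GRCr8, described as 250 bases before to 50 after a gene's start, were found for all 5 members. Those of Ramp3, Synpo2 and Ntng1 begin 250 bases before the listed gene. Those of Prkcd and Ptpn3 lie wholly inside the listed gene, beginning 33 and 1113 bases in from its 5′ end, so which start they were taken around is not known here. The windows are chr16:5805790-5806089 on the minus strand for Prkcd, chr2:200514982-200515281 on the minus strand for Ntng1 and chr5:76821172-76821471 on the minus strand for Ptpn3. Capitals mark the only match found, to the ROR motif.
Prkcd: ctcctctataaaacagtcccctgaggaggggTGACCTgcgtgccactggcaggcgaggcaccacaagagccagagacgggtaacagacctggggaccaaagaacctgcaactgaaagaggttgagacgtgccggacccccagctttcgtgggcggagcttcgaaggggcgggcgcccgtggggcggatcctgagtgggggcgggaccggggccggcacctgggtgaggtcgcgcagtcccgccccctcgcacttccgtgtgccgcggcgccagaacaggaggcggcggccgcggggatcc
Ntng1: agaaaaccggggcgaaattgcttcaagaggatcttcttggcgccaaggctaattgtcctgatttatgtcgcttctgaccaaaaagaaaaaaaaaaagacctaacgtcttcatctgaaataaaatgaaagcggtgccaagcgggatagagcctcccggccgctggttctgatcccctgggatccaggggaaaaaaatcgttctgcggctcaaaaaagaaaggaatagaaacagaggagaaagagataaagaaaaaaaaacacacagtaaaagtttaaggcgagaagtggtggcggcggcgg
Ptpn3: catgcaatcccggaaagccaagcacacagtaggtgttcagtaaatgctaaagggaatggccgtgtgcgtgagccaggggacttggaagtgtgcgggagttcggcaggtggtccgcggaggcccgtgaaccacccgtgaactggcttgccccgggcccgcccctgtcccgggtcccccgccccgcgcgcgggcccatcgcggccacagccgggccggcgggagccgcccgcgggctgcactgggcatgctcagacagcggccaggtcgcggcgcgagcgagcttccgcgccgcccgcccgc
Both strands were searched for 2 motifs. The core motif of the TCF/LEF factors, the family of Tcf7l2, was spelled CTTTGA, read on the opposite strand as TCAAAG. The motif of the ROR receptors, the family of Rora, was spelled AGGTCA, read on the opposite strand as TGACCT. Neither spelling contains the other. The ROR letters occurred in 1 of 5 member windows, that of Prkcd, starting at base 32 of the window, which is 64 bases inside the listed gene. The TCF/LEF letters occurred in 0 of 5. Among all 33469 windows of the RefSeq set, 16.1% held the TCF/LEF letters and 16.2% the ROR letters. A missing match says only that these letters are not in these windows. The windows of Ptpn3 and Prkcd held 36 and 27 CpG dinucleotides, those of Ramp3, Synpo2 and Ntng1 16, 16 and 15, and the median over all windows was 7.

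The label of the tissue was set beside the signals of hypothalamic peptide genes. Pmch, which encodes melanin-concentrating hormone of the lateral hypothalamus, averaged 12.32 in stress rats and 11.89 in control rats, and Avp, which encodes vasopressin, 11.33 and 11.81, while the column medians of that set ran from 8.16 to 8.19. Of the 16 measured genes of the hypothalamus list, 8 averaged above those medians in both groups and 8 below them, of which 7 were compressed, meaning a residual SD (the spread of a gene's values around its group means) under 0.01. Among the low ones Pomc, the precursor of melanocortin peptides, averaged 7.43 in stress rats, Crh, the corticotropin-releasing hormone gene, 7.80, and Sim1, a transcription factor of the paraventricular nucleus, 6.82. By definition as many probe sets lie above a column median as below it, so the count of 8 and 8 does not check the label. Signals of different probe sets cannot be ranked exactly against each other, and how far any lay above background was not measured here. Of the 20 genes of a thalamus list, 17 were measured. The mean log2 signal of those 17 ran from 9.66 to 10.27 in stress rats and from 9.65 to 10.30 in control rats, and in the second set from 9.54 to 9.98 in linalool rats and from 9.66 to 10.29 in stress rats. None of these genes was listed at 0. How much thalamic tissue a block held was not measured. In a bulk block, fewer cells of a type and less RNA per cell cannot be told apart.

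After restraint, none of the 5 genes passed the test against control rats. The differences were between 0.12 and 0.20 on the log2 scale, smaller than the SD inside either group. Ramp3, the receptor partner, had log2 signals of 8.14 at the lowest, 8.60 at the median and 8.97 at the highest stress rat, against 7.93, 8.51 and 8.97 in control rats. The whole stress range lay inside the control range. Its difference was 0.15 (SE 0.203, adjusted p = 0.735, limma, Benjamini-Hochberg over 14217 genes).

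Prkcd, the kinase, ran from 10.45 through a median of 10.97 to 11.58 in stress rats and from 10.40 through 10.95 to 11.32 in control rats. Stress rats 3 and 4 lay above every control rat, and the groups overlapped otherwise. The difference was 0.12 (SE 0.233, adjusted p = 0.820). Ptpn3, the phosphatase, had 9.42, 10.15 and 10.66 as its lowest, median and highest values in stress rats, against 9.31, 10.06 and 10.52 in control rats. It differed by 0.18 (SE 0.260, adjusted p = 0.762).

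Ntng1, the axonal adhesion protein, had 9.84, 10.47 and 10.81 in stress rats and 9.66, 10.34 and 10.76 in control rats, again lowest, median and highest. Its difference of 0.20 (SE 0.219, adjusted p = 0.684) was the largest of the 5. Synpo2, the actin-binding protein, had 9.35, 9.90 and 10.46 in stress rats against 9.17, 9.90 and 10.18 in control rats, a difference of 0.18 (SE 0.240, adjusted p = 0.732). For all 5 genes the groups overlapped, where 1.86% of all genes had groups that did not. The 95% intervals of the fold of stress over control together spanned 0.759 to 1.68, so changes of that size are not shown to be absent. The count of 0 of 5 members past the threshold stood beside 0.71% of all genes, and at an unadjusted p under 0.05 beside 16%, where the members' count was also 0.

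Markers of the meninges, the membranes around the brain, differed among the control blocks on which this comparison rests. Over 11 measured genes of the 12 on that list, the mean deviation from the set's mean was between -0.926 and -0.455 residual SDs in stress rats and between -1.03 and 2.30 in control rats, and it was above 0 in controls 3 to 6. Without controls 4, 5 and 6, the choice of which was made after seeing the data, the 5 differences were -0.15 for Prkcd, -0.097 for Ramp3, -0.091 for Synpo2, -0.076 for Ntng1 and -0.15 for Ptpn3, with none past the threshold. The sign of these small differences thus rested on those control rats. Controls 4 and 6 were the lowest control rats for all 5 members, so leaving them out was bound to raise the control mean. The part of the meningeal markers in this was not tested.

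With linalool during restraint, all 5 genes were lower than with restraint alone, by 0.55 to 0.70 on the log2 scale. Each of the 6 linalool rats lay below the mean of the stress rats for every member, yet the groups overlapped for every member, with 3 or 4 linalool rats inside the stress range (groups of 14.2% of all genes did not overlap). Ramp3 had 7.78, 8.10 and 8.47 as its lowest, median and highest log2 signal in linalool rats, against 8.11, 8.61 and 9.12 in stress rats. Its difference was -0.55 (SE 0.189), a signal in linalool rats 0.681 times that in stress rats.

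Prkcd had 10.12, 10.48 and 10.85 in linalool rats and 10.44, 11.02 and 11.55 in stress rats, in the same order. The difference was -0.55 (SE 0.195), or 0.682 times the stress signal, with 3 linalool rats below every stress rat. Ptpn3 ran from 8.97 through 9.47 to 9.83 in linalool rats and from 9.43 through 10.18 to 10.68 in stress rats. It had the largest difference of the 5, -0.70 (SE 0.224), or 0.617 times the stress signal. It ranked 6 from the lowest of the 14217 log2 differences, in a set where 81.0% of genes were compressed and their differences may be understated. Against its own spread Ptpn3 differed by -1.76 residual SDs. The rank is a description only.

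Ntng1 ran from 9.44 through 9.83 to 10.13 in linalool rats, against 9.83 through 10.49 to 10.83 in stress rats. Its difference was -0.67 (SE 0.176), or 0.629 times, the largest of the 5 when set against its own spread (-2.16 residual SDs). Synpo2 had 8.998, 9.45 and 9.79 in linalool rats and 9.42, 9.99 and 10.55 in stress rats, a difference of -0.62 (SE 0.205), or 0.651 times. Of the 5 members, 4 passed an adjusted p of 0.05 in the fit over all genes, all lower, and Prkcd did not. All genes passed it at 29.7%, and at 9.71% in the lower direction. The count was 1 without linalool rat 2, 3, 4 or 5 and without stress rat 1, 3, 4 or 6. Nothing is read from it, since the genes were chosen on this comparison.

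**Figure D1:**
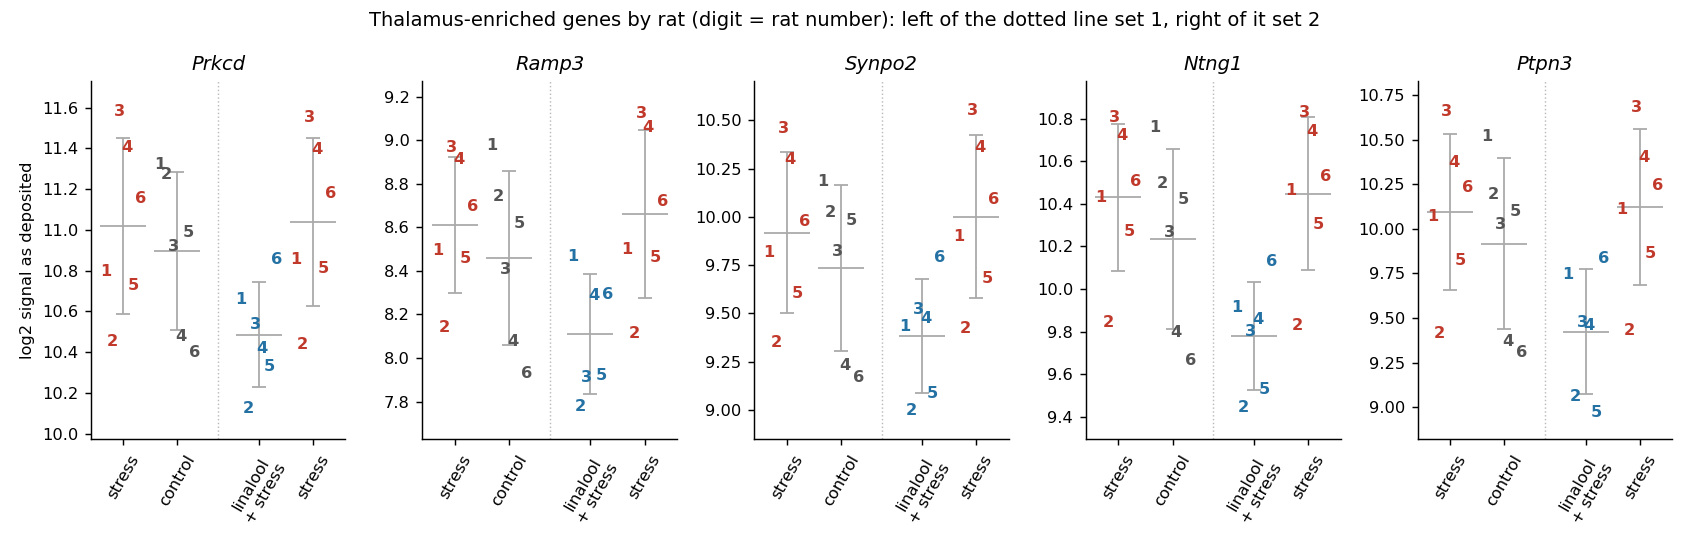
Log2 signal of the 5 genes in each rat, 1 panel per gene, with the digit giving the rat's number in its group, the wide bar the group mean and the whiskers 1 SD (n = 6). Left of the dotted line are stress and control rats of the first set, right of it linalool and stress rats of the second set. Among stress rats, 3 and 4 are highest in every panel, and every linalool rat lies below the stress mean on its right.

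Array control probe sets, whose targets are spiked in and not from tissue, also differed between linalool and stress arrays. Of 15 labelling controls 7 were higher in linalool rats, and of 9 hybridisation controls 2 were lower, beside 20% and 9.71% of all genes. Between stress and control rats none of either kind passed (limma, threshold 0.05, p adjusted over the array controls only). The hybridisation controls were still lower in stress rats there, by a median log2 difference of -0.081 (from -0.11 to -9.4e-05). That of the labelling controls was -4.7e-05. With linalool the median log2 difference was 0.0002 for labelling controls and -0.0005 for hybridisation controls. The largest were 0.18 and -0.15. A difference in processing between the groups and the odour cannot be told apart in this design. The thalamus list was lower in linalool rats too, with a mean deviation from the set's mean between -1.45 and 0.0096 residual SDs in linalool rats and between -0.998 and 1.67 in stress rats. Other marker lists differed between the same groups. The hypothalamus list ran from -0.532 to 1.28 in linalool rats and from -1.28 to 0.332 in stress rats, with 2 of 16 genes higher past the threshold and 0 lower (20% and 9.71% of all genes). Of its 16 genes 8 were compressed, and each counts as much as the others in that mean. A list of general neuronal genes ran from -1.27 to 0.528 in linalool rats and from 0.116 to 0.785 in stress rats, and 2 of its 8 genes fell. These were Syt1, a synaptic vesicle calcium sensor, and Rbfox3, a neuronal splicing factor, with differences of -0.34 and -0.27 (adjusted p = 0.00272 and 0.00519). The part of both lists in the members' result was not tested. When the mean level of those 17 genes was taken as a covariate, a choice made after seeing the data, the members' differences were -0.078 for Prkcd, -0.071 for Ramp3, -0.11 for Synpo2, -0.22 for Ntng1 and -0.13 for Ptpn3. The covariate itself differs between the groups and so takes up part of any group difference.

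The order of the rats was shared by the members. In both sets the stress rats ran 3, 4, 6, 1, 5 and 2 from highest to lowest for all 5 genes, and in the first set the control rats ran 1, 2, 5, 3, 4 and 6 for all 5. Among linalool rats, rat 6 was highest for 4 genes and rat 1 for Ramp3, and rat 2 was lowest for 4 genes and rat 5 for Ptpn3. A stress rat's value differed between the sets by at most 0.155, for Ramp3. Within a group the highest rat exceeded the lowest by 1.77 to 2.37 times among stress rats, by 1.89 to 2.31 times among control rats and by 1.61 to 1.82 times among linalool rats. By residual SD the 5 genes ranked between 117 and 214 of 14217 from the most variable in the first set and between 89 and 151 in the second. Of all genes 80.9% and 81.0% were compressed in these sets, and the members were chosen partly for varying between arrays.

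Over the 12 arrays of a set, with group means removed, the 10 pairs of members correlated at r of 0.954 to 0.989 in the first set (Spearman rho 0.972 to 1, and r of 0.931 to 0.983 without the 2 rats farthest from the median). In the second set the pairs ran from 0.875 to 0.974 (rho 0.825 to 0.979, and r of 0.767 to 0.967 without the 2 farthest rats). Ramp3 followed the other members least in linalool rats, with r = 0.768 against the mean of the other 4 over 6 rats, where its r was 0.986 in stress rats of that set. These genes were chosen partly for varying together, and all points share the same arrays and their normalisation, so the values carry no test.

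Of the members' 9 probe sets, 7 followed the other members at r of 0.9 or more in both sets, and the other 2 belong to Synpo2. Its second probe set, 1384160_at, followed them at r = 0.976 and 0.940 in the first and the second set, and was lower in linalool rats by -0.44 (SE 0.163). The second probe set of Ptpn3, 1376537_at, differed by -0.68 (SE 0.244) in linalool rats and by 0.19 in stress rats against control rats, close to the values of the first. Probe set 1393528_at of Synpo2 was flat, with an SD under 0.001 in each group. Probe set 1376398_at did something else.

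That probe set, annotated to the same Synpo2, had 7.55, 7.69 and 7.78 as lowest, median and highest value in stress rats of the first set and 7.44, 7.76 and 8.38 in control rats. Control rat 5, one of the highest for meningeal markers, gave the 8.38. Its r with the other members was -0.11 (rho -0.15, r = -0.17 without the 2 farthest rats). With the mean of the 11 meningeal genes its r was 0.805 over the 12 arrays (rho 0.818, r = 0.827 without the 2 farthest). In the second set it was flat, with an SD of 0.0003 in linalool rats and 0.0002 in stress rats. Probe sets annotated to the same gene thus varied with different marker lists, and which transcripts each detects was not tested.

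Which other genes varied like the members from rat to rat was measured by the r of each gene's deviations with the members' mean deviation, over the 12 arrays of a set. The 10 nearest genes in the first set were Shox2, Ccdc136, Pakap, Ptpn4, Kcnc2, LRRTM1, Inpp5a, Pdp1, Plcb4 and Plcxd2, with r between 0.972 and 0.987. In the second set they were Ccdc136, Plcb4, Ptpn4, Pakap, Cidea, Chrna4, Lef1, Kcnc2, Shox2 and Hspa12a, with r between 0.967 and 0.984. Both sets hold the 6 stress rats, so the lists are not independent. Shox2, a homeodomain transcription factor, had r = 0.987 and 0.969 in the first and the second set, and Kcnc2, a voltage-gated potassium channel of fast-spiking neurons, 0.981 and 0.969.

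Ptpn4, the closest relative of Ptpn3 among the phosphatases, had r = 0.982 and 0.974, and Plcb4, a phospholipase C that makes the diacylglycerol on which Prkcd depends, 0.972 and 0.982. An r of 0.9 or more was reached by 109 genes in the first set (0.767% of all) and by 73 in the second (0.514%). Of the 100 nearest genes in the first set 0 passed the test between stress and control rats, beside 0.71% of all genes. Of the 100 nearest in the second set 36 passed between linalool and stress rats, all 36 lower, beside 9.71% of all genes lower. Those 100 were ranked on the same arrays, by deviations from the group means, against members chosen with this comparison known. The count of 36 is therefore a description and no independent evidence, and 17 of the 100 genes were compressed.

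Grouped by list, the 17 measured genes of the thalamus list had median r of 0.886 and 0.860 in the first and the second set, against -0.074 and -0.030 for all genes. An r of 0.7 or more was reached by 14 and 15 of the 17, and Tnnt1, which encodes a slow muscle troponin and marks some thalamic relay neurons, was the only one below 0 in each set. Within stress rats alone the median was 0.931, within control rats 0.846 and within linalool rats 0.881, over 6 rats each. Markers of the habenula, the epithalamic nucleus above the thalamus, had medians of 0.617 and 0.478.

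Other lists ran the opposite way. The 8 striatum genes, all with r below 0, had medians of -0.866 and -0.731. The reticular thalamus and zona incerta list of GABAergic neurons had -0.696 and -0.720, and the hypothalamus list -0.497 and -0.578. Of the 16 hypothalamus genes 7 and 8 were compressed in the first and the second set, so their r rests on very small differences. Meningeal markers had -0.471 and then 0.129. Stress rat 2, the lowest stress rat for the members, had a striatum deviation of 1.34 residual SDs, and the lowest control rats, 4 and 6, had 1.51 and 1.17. Linalool rat 5 had 1.93, while linalool rat 2, the lowest for 4 members, had 0.039. Controls 1, 2, 3 and 5 had -0.88 to -0.58, while the members' mean ran from -0.12 to 1.03 in them. The opposite course of the striatum list thus rested on a few rats. Its median r was -0.889 within stress rats of the first set, -0.894 within control rats and -0.582 within linalool rats, over 6 rats each. The blocks' borders were not measured, and the part of these lists in the members' differences was not tested beyond the covariate above.

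**Figure D2:**
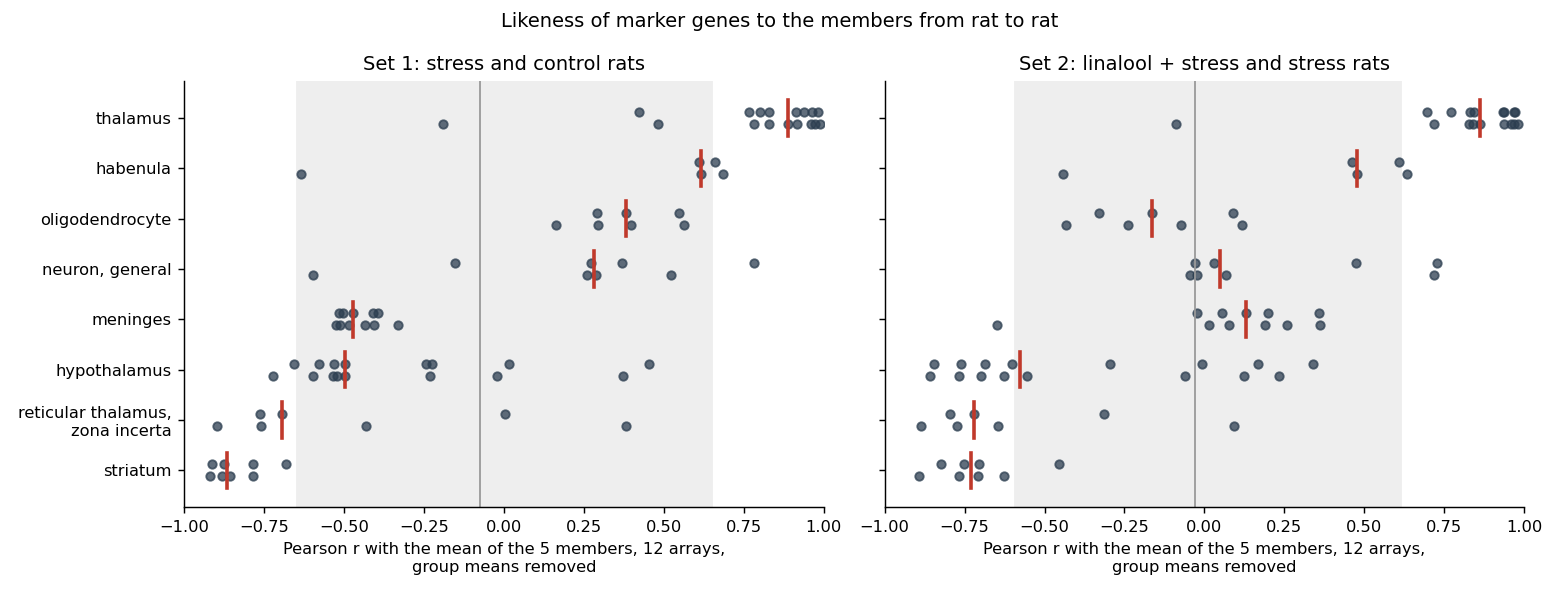
Pearson r of each list gene (1 point per gene, 12 arrays, group means removed) with the mean deviation of the 5 members, by gene list, in the first and the second set. Thalamus genes sit at medians of 0.886 and 0.860, and striatum genes at -0.866 and -0.731.

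**Figure D3:**
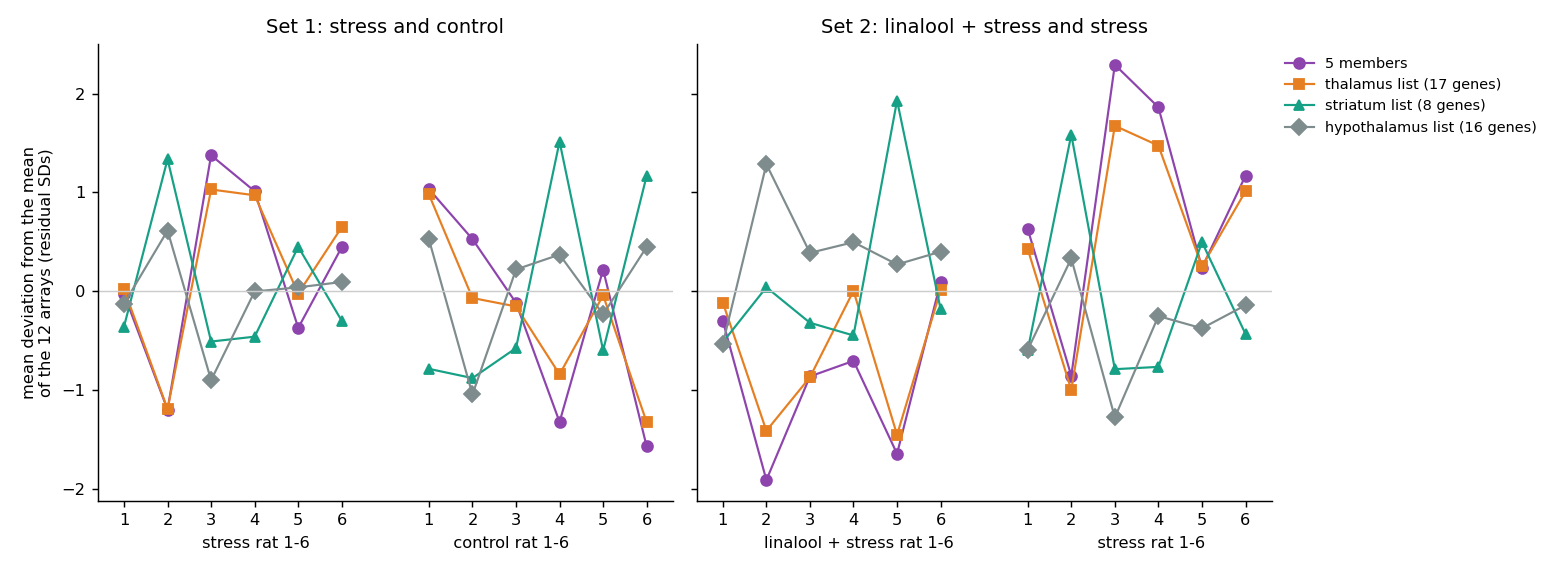
Mean deviation from the set's mean, in residual SDs, of the members and of marker lists in each rat, with set 1 holding stress and control rats and set 2 linalool and stress rats. The thalamus list follows the members from rat to rat. The striatum list is high in some of the rats that are low for the members, with 1.51 in control rat 4 and 1.93 in linalool rat 5. In linalool rat 2, also low for the members, it is 0.039.

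None of the thalamus list genes is a member. The list was however chosen with earlier results of these data known and varies with the members, so its counts are no independent evidence of their direction. With linalool, 5 of 17 fell, 0 rose and 12 did not pass, beside 9.71% of all genes lower and 29.7% in either direction. The list's median difference was -1.33 residual SDs, and that of all genes 0.223. Rora, a nuclear receptor, averaged 9.43 in linalool rats and 10.12 in stress rats and fell by 0.69 (SE 0.169, adjusted p = 0.0122). Kcnc2 averaged 11.42 and 11.90, a fall of 0.48 (SE 0.133, adjusted p = 0.0212).

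Necab1, a neuronal calcium-binding protein, fell by 0.37 (SE 0.109, adjusted p = 0.0282). Adarb1, an enzyme that edits adenosines in RNA, fell by 0.31 (SE 0.0998, adjusted p = 0.0390), and Plcb4 by 0.32 (SE 0.104, adjusted p = 0.0417). Among those that did not pass, Shox2 and Gbx2, a homeodomain factor of the developing thalamus, differed by -0.59 and -0.58 (adjusted p = 0.0955 and 0.103). Tcf7l2 differed by -0.30 (adjusted p = 0.218) and Slc17a6, which encodes the vesicular glutamate transporter 2, by -0.23 (adjusted p = 0.114). Rgs16, a regulator of G-protein signalling, differed by -0.38 (adjusted p = 0.0503), and Lef1, Zic1, Zic4 and Foxp2, all transcription factors, by -0.38, -0.36, -0.37 and -0.10. Cacna1g, a T-type calcium channel, was compressed and did not pass (adjusted p = 0.0787). Calb2 (calretinin) differed by 0.019 and Tnnt1 by 0.21.

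The count of 5 rested on single rats. It was 2 without stress rat 1, 3, 4 or 6 or without linalool rat 2 or 5, it was 3 without linalool rat 1, 3 or 4, and it was 14 without stress rat 2, the stress rat lowest for the members. Rora and Kcnc2 passed in all 12 of these fits. With the members' mean level as a covariate 0 of 17 passed, where the calls over all genes fell from 4229 to 1510. The members were chosen on this comparison, so that covariate takes up part of any group difference, and nothing is read from the 0. Against control rats, 0 of 17 passed in stress rats, beside 0.71% of all genes, and the median difference was 0.493 residual SDs against 0.110 for all genes.

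**Figure D4:**
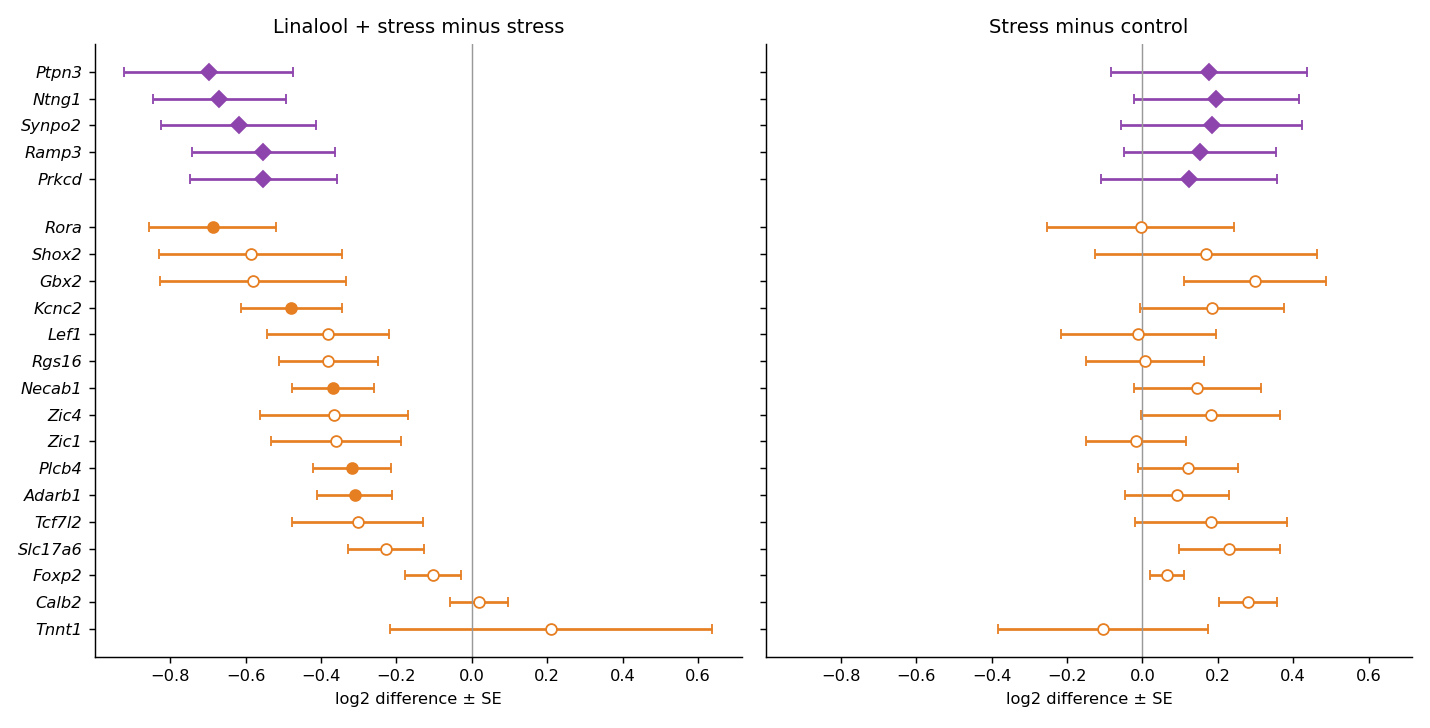
Log2 difference with its SE, as linalool minus stress (left) and stress minus control (right), for the members (diamonds, filled without regard to a test) and thalamus list genes (circles, filled where the adjusted p is under 0.05, without the compressed Cacna1g). Members lie between -0.70 and -0.55 on the left, without a test, and between 0.12 and 0.20 on the right, with none past the threshold.

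Partners and relatives of the members were followed from 5 short lists. Their counts stood beside 20% of all genes higher, 9.71% lower and 29.7% in either direction in linalool rats, and none of the 5 is called particular by its count. With the thalamus list as a covariate many calls over all genes were lost too (counts under processing below), since that covariate differs between the groups. A call lost under it is therefore not read as particular to a gene. Of 9 measured genes of the Ramp3 receptor system, 2 rose in linalool rats and 0 fell. Ramp1, the sister protein that makes the receptor for the peptide CGRP, averaged 9.79 in linalool rats and 9.56 in stress rats (difference 0.22, SE 0.0572, adjusted p = 0.0146), and Ramp2, which makes the main adrenomedullin receptor, 10.41 and 10.17 (0.23, SE 0.0456, adjusted p = 0.00391). From rat to rat Ramp1 ran against the members, with r = -0.843 and -0.845 in the first and the second set, while Ramp2 did not vary with them in the second set (r = -0.030). With the thalamus list as a covariate Ramp1 differed by 0.088 and did not pass (adjusted p = 0.122), and Ramp2 still passed. Calcr, the calcitonin receptor, differed by 0.14 (adjusted p = 0.745).

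Of 9 measured genes of the protein kinase C list, 1 rose and 2 fell in linalool rats. Prkce, a calcium-independent kinase like Prkcd, fell by 0.46 (SE 0.0743, adjusted p = 0.00156), and Prkcb, a calcium-dependent kinase, by 0.23 (SE 0.0300, adjusted p = 0.000502). With its probe sets averaged Prkcb differed by -0.12 and still passed. Neither varied like the members, with r = -0.339 and 0.277 in that set. Rack1, a scaffold for active kinase C, rose by 0.22 (SE 0.0452, adjusted p = 0.00515), and did not pass with the thalamus list as a covariate (adjusted p = 0.0674). Prkch did vary like them (r = 0.927 and 0.963 in the first and the second set), and its difference of -0.22 did not pass (adjusted p = 0.0920).

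Of 6 measured genes around netrin-G1, 2 fell in linalool rats: Lrrc4b, a relative of its ligand, by 0.13 (SE 0.0305, adjusted p = 0.00896), and Slitrk1, a synaptic adhesion protein, by 0.18 (SE 0.0577, adjusted p = 0.0370). With probe sets averaged Lrrc4b differed by -0.044 and still passed, and Slitrk1 differed by -0.034 and did not. Slitrk1 passed in 4 of the 12 fits that each left out a rat, with an adjusted p of up to 0.0761. With the thalamus list as a covariate Lrrc4b did not pass (adjusted p = 0.0616). Lrrc4c, the ligand itself, was compressed and did not pass (adjusted p = 0.685). Of 9 genes around synaptopodin and actin 3 fell. Actn4 and Ywhab were compressed, and Zyx, a focal adhesion protein, fell by 0.34 (SE 0.0920, adjusted p = 0.0179), a call lost with the thalamus list as a covariate (adjusted p = 0.150). The 3 of 10 phosphatase genes that rose (Ptpn2, Ptpn14 and Vcp, the last a substrate of Ptpn3) were all compressed, and Ptpn4 differed by -0.25 (adjusted p = 0.135).

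Against control rats, 1 gene of these 5 lists passed. Ptpn11, a phosphatase of growth factor signalling, averaged 12.03 in stress rats and 11.80 in control rats and rose by 0.23 (SE 0.0356, adjusted p = 0.0250). It did not vary like the members (r = 0.12), and it passed in 5 of the 12 fits that each left out a rat, with an adjusted p of up to 0.0726. Its call was also lost when its probe sets were averaged (adjusted p = 0.180). Between linalool and stress rats it was compressed and did not pass (adjusted p = 0.156).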

How the data were processed

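RNA from hypothalamic blocks of 18 rats was hybridised to 1 array per rat. Per the labels' protocols, total RNA was purified and biotin-labelled cRNA prepared from it for a 3' expression array. The deposited values are log2 signals per probe set, a scale read from their range (5.59 to 14.93). The authors, by the series' design text, normalised stress and control arrays as the first set and linalool and stress arrays as the second. The summarisation method, any background correction and centring are not given in the sources used here. Column medians were 8.13 to 8.19. The number of arrays limits the precision.

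The members and all gene lists were chosen with earlier results of these data known. Each gene was represented by its probe set with the highest mean over all 24 columns. Of 31099 probe sets, 57 are array controls and stayed out of the gene fits, 20826 have 1 gene symbol in the platform table, 436 several and 9780 none listed there. The 12 arrays of each set were fitted in R 4.3.3 with limma 3.58.1, using lmFit and eBayes without a filter. Two-sided p-values were adjusted over 14217 genes by Benjamini-Hochberg, and 0.05 was the threshold. By the labels every array is a separate animal, and p-values reflect the variation between rats. A residual SD under 0.01 marks a gene as compressed, which 80.9% and 81.0% of genes were in the first and the second set. Their log2 differences may be understated, and list medians are given in residual SDs. No chosen member probe set was compressed. The fit was tested on simulated data.

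The text names every member, all measured thalamus list genes, partner genes past the threshold with at most 4 others per list, and the 10 genes nearest to the members in each set. The rule also takes in genes among the 100 nearest in both sets, which are not listed here. Alternatives were quantile normalisation, median centring, averaged probe sets, adjustment over all probe sets, a level filter, other variance settings, array weights, the replicate block, leaving out each rat, and 3 added after seeing the data.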

Additional observations from a re-analysis of the deposited data

How the results depend on the processing

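The count of genes past the threshold between stress and control rats, 101, was 55 with quantile normalisation, 61 with each array centred on its median, 9 with the replicate block and 2 without controls 4, 5 and 6. It ran from 26 (without stress rat 1) to 133 (without control rat 2) when single rats were left out. The members' count stayed at 0 in every one of these fits. Their restraint differences were below 0 without controls 4, 5 and 6 (Prkcd -0.15, Ramp3 -0.097, Synpo2 -0.091, Ntng1 -0.076, Ptpn3 -0.15) and with the thalamus list as a covariate (Prkcd -0.10, Ramp3 -0.051, Synpo2 -0.052, Ntng1 -0.026, Ptpn3 -0.085). The cause was not tested. Between linalool and stress rats the 4229 genes became 1573 with quantile normalisation (1013 higher, 560 lower), 13220 with median centring (12600 higher, 620 lower, against 2849 and 1380), 1510 with the members as a covariate, 2124 with the thalamus list as a covariate and 3254 with the replicate block, and 3548 to 4187 without single rats. The 4 members past the threshold became 1 with quantile normalisation, 2 with adjustment over all probe sets, 2 with an ordinary linear model, 1 with the thalamus list as a covariate, 4 with the replicate block, and 1 to 5 without single rats. Same-numbered rats correlated at 0.0866 to 0.226 in the first set and at -0.110 to 0.194 in the second. The best match with another number reached 0.150 to 0.242 and 0.0590 to 0.194. Whether the replicate numbers pair the rats cannot be told from these values. Without single rats the members' linalool differences ran from -0.67 to -0.45 for Prkcd, -0.66 to -0.46 for Ramp3, -0.73 to -0.51 for Synpo2, -0.79 to -0.59 for Ntng1 and -0.84 to -0.59 for Ptpn3, each lowest without stress rat 2 and highest without stress rat 3. Ramp3 has no value when genes below the median level are left out. The thalamus list count of 5 was 3 with quantile normalisation, 11 with median centring and 8 with the replicate block. Median centring moves all genes of an array by the same amount. A compressed gene with very little spread (81.0% of genes were compressed) then follows the array medians. The 13220 calls are thus not separate responses of genes, and nothing is read from them or from the 11.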

Other observations

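Some genes varied against the members from rat to rat. In the first set the lowest r was that of Dlgap2, a scaffold protein of excitatory synapses (-0.951), followed by Lamp5, Dact2, Penk and Islr2, at -0.915 or below. Penk encodes proenkephalin, the precursor of the enkephalins, and is also on the striatum list. In the second set the lowest were C7h12orf75, Rab3b, Glra3, Ankrd6 and Dact2, between -0.923 and -0.912. Glra3, a glycine receptor subunit, had -0.918 there and -0.545 in the first set. These values are descriptions over 12 arrays each, and the sets share the stress rats.

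Npy, which encodes neuropeptide Y and is on the hypothalamus list, rose by 0.31 in linalool rats against stress rats (SE 0.0664, adjusted p = 0.00662, limma). From rat to rat it ran against the members, with r = -0.844 in that set and -0.723 in the first. With the members' mean level as a covariate its difference was 0.13 and did not pass (adjusted p = 0.161). Of the 16 measured hypothalamus genes 2 rose and 0 fell, beside 20% of all genes higher. With that covariate 0 rose and 1 fell. Over all genes 1097 rose and 413 fell with it, against 2849 and 1380 without it. The covariate differs between the groups and takes up part of any group difference, so nothing is read from a lost call.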
